A study of Mus musculus with 6 samples.

Results

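The DDX and DHX genes encode RNA helicases, enzymes that use ATP to open RNA duplexes or to strip proteins from RNA. Members were the genes of the transcript table whose symbol starts with Ddx or Dhx followed by a digit, apart from a pair that is not analysed here, which gave 48 of 11808 genes, 33 DDX and 15 DHX. The letters DDX stand for a motif read DEAD in the protein code, and DHX for its variant DEAH; this motif sits in the ATP-binding core and takes part in ATP hydrolysis. DEAD-box proteins open short duplexes locally and act in ribosome assembly, mRNA export, translation and mRNA decay, whereas several DEAH-box proteins drive the rearrangements of the spliceosome. Many members work in the nucleolus, where Sirt7, a NAD-dependent deacylase, also lies, and in human cells SIRT7 is known to deacetylate the protein of one member, DDX21. That known link concerns protein acetylation, which RNA sequencing does not measure.

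The cells were primary cultures of vascular smooth muscle, the muscle of artery walls, released by collagenase from male C57BL/6 mice 6 weeks old and grown in serum-containing medium. One group, siSirt7, received 20 nM of siRNA against mouse Sirt7 and carries the genotype label of a Sirt7 knockdown. The other, siScrambled, received 20 nM of a scrambled siRNA and is labelled WT; both were transfected by lipofection and sampled at 48 h. There were 3 libraries in each group. The labels do not say whether these came from separate isolations, so p-values measure only the spread among libraries, possibly technical.

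Levels are FPKM (fragments scaled to transcript length and to the library's mapped fragments), summed over the transcripts of a gene; the table has no counts, so depth and counting error are unknown. Summed FPKM lay between 321944 and 333683 per library. Sirt7 itself stood at 0.959, 1.25 and 0.360 FPKM in siSirt7 libraries, against 4.35, 3.55 and 4.48 FPKM in siScrambled libraries (log2 fold change -1.49, adjusted p = 0.00388, limma). All 7 smooth muscle markers were listed, and their summed level was 2437 to 2645 FPKM in siSirt7 libraries and 2777 to 2816 FPKM in siScrambled libraries. None of 5 endothelial markers was among the genes listed, and of 6 leukocyte markers Cd68, Csf1r and Lyz2 were (20.2 to 22.8 FPKM summed in siSirt7 libraries, 18.1 to 21.2 FPKM in siScrambled libraries), while Ptprc, Adgre1 and Cd3e were not. The 4 adventitial fibroblast markers summed to 27.6 to 30.6 FPKM in siSirt7 libraries and 37.1 to 38.7 FPKM in siScrambled libraries. The smooth muscle and adventitial sums differed between the groups without overlap, and their part in the results below was not tested. In bulk RNA, fewer cells of a type and less RNA per cell cannot be told apart.

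The motif that names the family is shown here in 5 members whose level differed between the groups, as 30 bases of coding sequence from GENCODE vM21 transcripts (GRCm38), with the 4 codons of DEAD or DEAH in capitals. Each run lies in 1 coding exon.
Ddx18 (chr1:121561330-121561359, minus strand, motif from residue 323): ctggttattGATGAGGCTGACcgtatcttg
Ddx41 (chr13:55533047-55533076, minus strand): ctagccctgGATGAAGCTGACcgcatgatt
Ddx3x (chrX:13289399-13289428, plus strand, motif from residue 347): ctggtgttaGATGAAGCTGACcggatgtta
Ddx5 (chr11:106785184-106785213, minus strand, motif from residue 248): cttgtccttGATGAAGCTGATaggatgctt
Dhx38 (chr8:109556056-109556085, minus strand, motif from residue 653): gtcatcatgGATGAGGCCCACgagcgctcc
The DEAD runs spell the same residues in the motif, and the Dhx38 run ends it with the histidine codon of the DEAH form. In the most abundant listed transcript of each gene, 26 of 33 DDX members encode the letters DEAD, and 8 of 15 DHX members encode DEAH. The 13 members with neither include Ddx21, Ddx50, Dhx9 and Dhx36, which belong to the family by their symbol and carry another form of the motif.

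Of the 48 members, 47 had a mean of at least 1 FPKM and were tested among 10854 genes. Ddx4, the germ-cell helicase known as Vasa, was below that level, at 0, 0.342 and 0.357 FPKM in siSirt7 libraries, against 0.657, 0.591 and 0.906 FPKM in siScrambled libraries. With an adjusted p under 0.05 (limma on log2(FPKM + 1), Benjamini-Hochberg over all tested genes), 6 members were higher in siSirt7 cells: Ddx1, Ddx10, Ddx18, Ddx21, Ddx41 and Dhx38. A pair was lower, Ddx3x and Ddx5, and 39 were not called. The 6 higher members are 12.8% of those tested, against 12.7% of all tested genes called higher, so the share of rises is that of the background. The 2 lower members are 4.26%, against 12.5% of all tested genes called lower. At an unadjusted p under 0.05 (limma) there were 15 of 47 members and 4111 of 10854 tested genes, a smaller share among the members.

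The changes were small. The fitted log2 fold changes of the members, siSirt7 minus siScrambled, ran from -0.21 to 0.87 with a median of 0.10, beside a median of -0.005 over all tested genes. For 35 of 47 members (74.5%) the fold change was positive, against 49.1% of all tested genes. Differences under 0.25 on the log2 scale made up 78.7% of the members and 65.2% of all tested genes, while those of at least 0.5 made up 2.13% of the members (Dhx35, not called) and 11.2% of all tested genes. The level of every siSirt7 library lay on one side of every siScrambled library for 18 tested members (38.3%), against 43.9% of all tested genes. The members summed to 1109, 1113 and 1121 FPKM in siSirt7 libraries, against 1068, 1064 and 1078 FPKM in siScrambled libraries, so the groups did not overlap although most single members were not called. The median was 0.09 for the 32 tested DDX members and 0.12 for the 15 DHX members. Of the DDX members, 5 were called higher (15.6%) and 2 lower (6.25%). Of the DHX members, 1 was called higher (6.67%) and none lower (0%). Over all tested genes the shares were 12.7% higher and 12.5% lower.

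**Figure D1:**
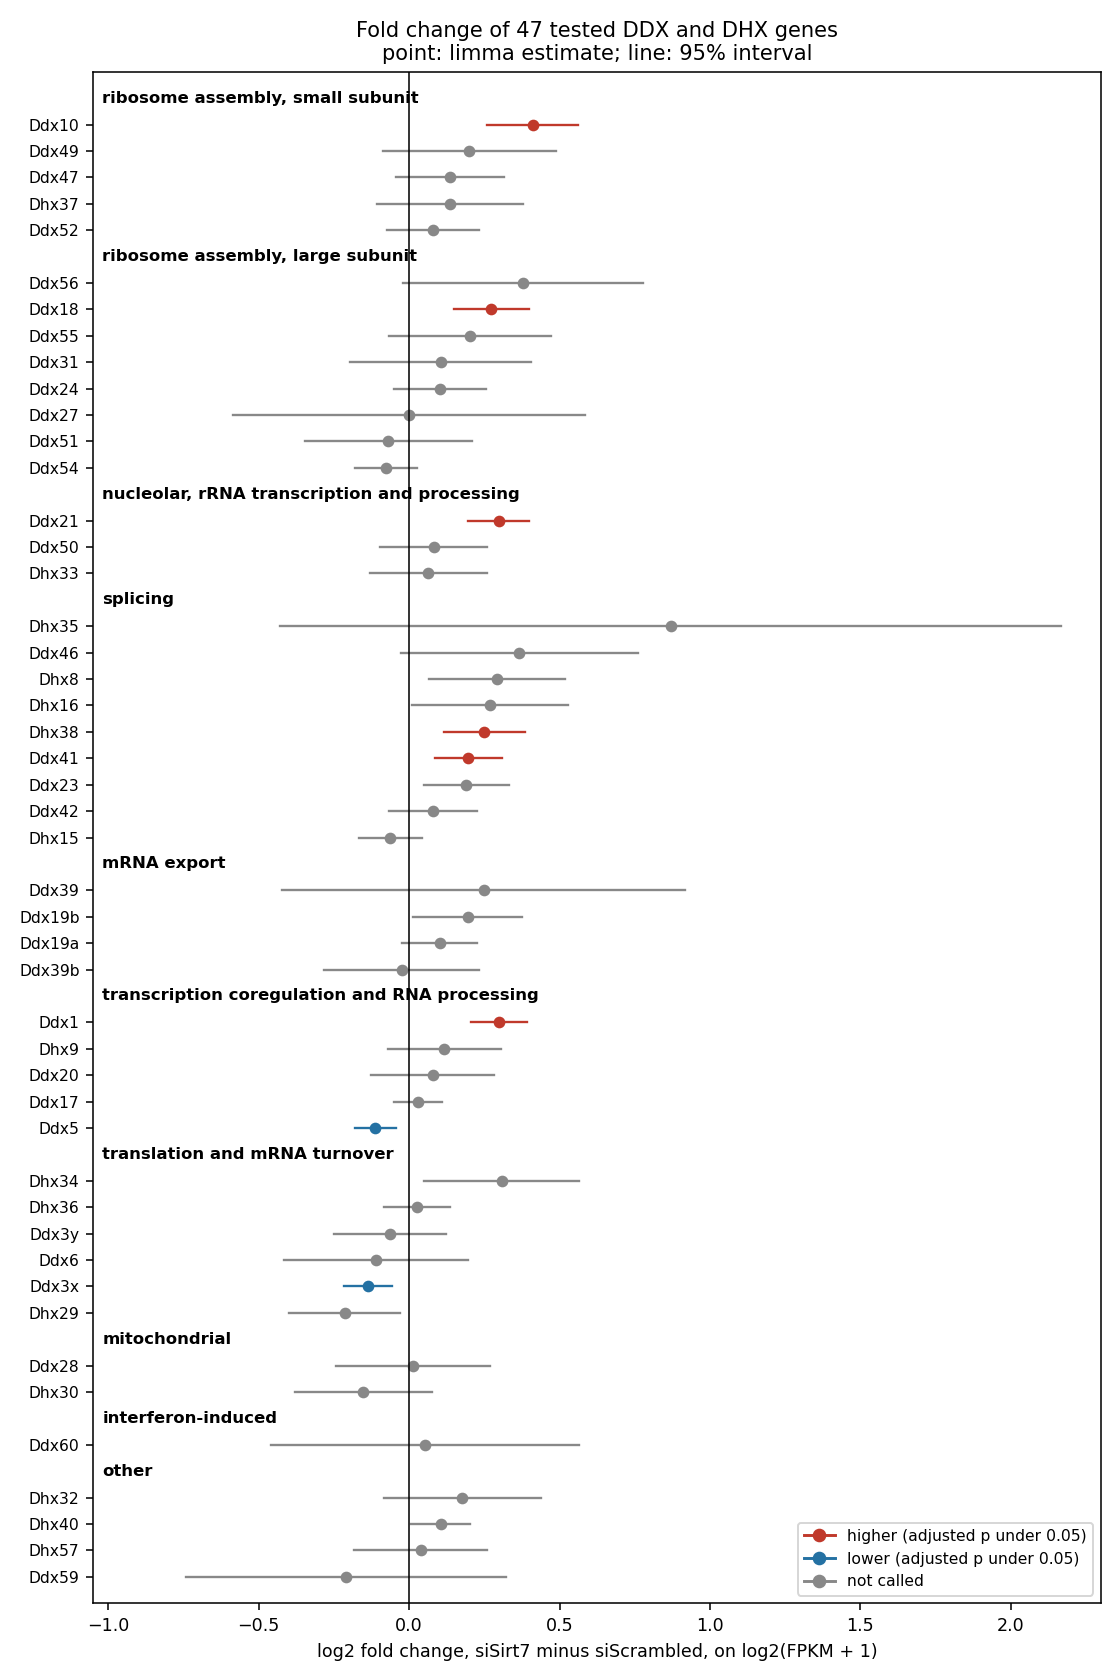
Fitted log2 fold change (siSirt7 minus siScrambled, log2(FPKM + 1) scale) with its 95% interval for the 47 tested helicases, grouped by role. Most points lie within 0.25 of zero and 35 of 47 lie on the positive side; the 6 called higher and the 2 called lower are coloured.

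**Figure D2:**
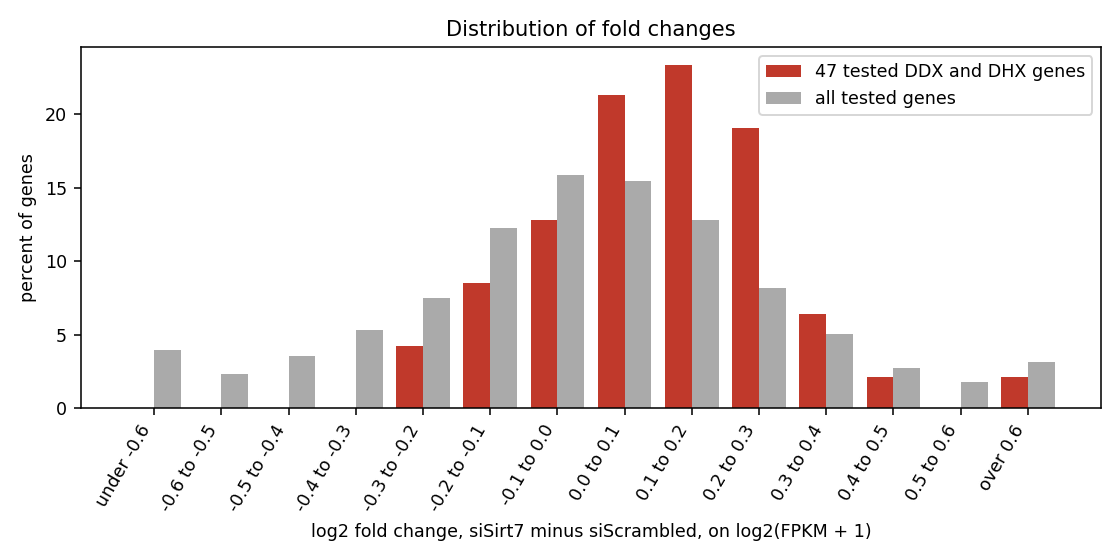
Share of helicases (47) and of all tested genes (10854) in bins of log2 fold change (siSirt7 minus siScrambled). The helicases gather just above zero, with a median of 0.10, while all genes spread more widely around a median of -0.005. These sets were not matched for level.

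Ribosome assembly and the nucleolus hold the largest group of members. Of 16 helicases that act there, 3 rose (18.8%, against 12.7% of all tested genes) and none fell (0%, against 12.5%). The fold change was positive for 13 (81.2%, against 49.1% of all tested genes), with a median of 0.12. Ddx10, whose yeast counterpart releases a small nucleolar RNA during assembly of the small ribosomal subunit, had the largest rise among the called members. It stood at 18.1, 17.4 and 19.1 FPKM in siSirt7 libraries and at 14.3, 13.2 and 12.8 FPKM in siScrambled libraries, with no overlap. Its means were 18.2 ± 0.874 FPKM in siSirt7 cells and 13.4 ± 0.765 FPKM in siScrambled cells (SD, n = 3 each), 35.4% higher, with a log2 fold change of 0.41 (95% interval 0.26 to 0.56, SE 0.06, limma adjusted p = 0.00578). The other 4 small-subunit members, Ddx47, Ddx49, Ddx52 and Dhx37, all had positive fold changes between 0.08 and 0.20, none of them called. The 5 small-subunit members summed to 66.6, 68.2 and 71.9 FPKM in siSirt7 libraries, against 61.0, 56.6 and 60.6 FPKM in siScrambled libraries.

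Ddx21 is the member most directly tied to Sirt7 by earlier knowledge: its protein binds ribosomal RNA and small nucleolar RNAs and promotes transcription by RNA polymerase I. Its mRNA stood at 47.8, 47.3 and 50.4 FPKM in siSirt7 libraries, against 38.1, 39.4 and 40.3 FPKM in siScrambled libraries. Every siSirt7 library was above every siScrambled library, and the means, 48.5 ± 1.68 FPKM in siSirt7 cells and 39.3 ± 1.15 FPKM in siScrambled cells (SD, n = 3 each), differed by 23.5%, with a log2 fold change of 0.30 (95% interval 0.19 to 0.40, SE 0.04, limma adjusted p = 0.00467). Its close relative Ddx50, also nucleolar, stood at 36.2, 35.1 and 35.7 FPKM in siSirt7 libraries and at 37.6, 30.97 and 32.7 FPKM in siScrambled libraries. Those groups overlapped, and the log2 fold change of 0.08 was not called (adjusted p = 0.467). Dhx33, which acts in ribosomal RNA transcription, was not called either (0.06, adjusted p = 0.608).

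Among 8 helicases of the large ribosomal subunit, 1 rose (12.5%, against 12.7% of all tested genes) and none fell (0%, against 12.5%). Ddx18, counterpart of yeast Has1, which acts in ribosome assembly, stood at 26.3, 26.1 and 25.0 FPKM in siSirt7 libraries and at 21.1, 22.3 and 20.2 FPKM in siScrambled libraries. The lowest siSirt7 library was above the highest siScrambled library, with means of 25.8 ± 0.719 FPKM in siSirt7 cells and 21.2 ± 1.02 FPKM in siScrambled cells (SD, n = 3 each). The log2 fold change was 0.27 (95% interval 0.15 to 0.40, SE 0.05, limma adjusted p = 0.0119). Ddx54 had the lowest fold change of this group (-0.08, adjusted p = 0.248) and Ddx56 the highest (0.38, adjusted p = 0.149), neither called. Ddx24, Ddx31, Ddx51 and Ddx55 had fold changes between -0.07 and 0.20 and were not called. Ddx27, singled out after its values were seen, shows how 1 library can decide a value. Its gene sum was 28.8, 28.5 and 31.1 FPKM in siSirt7 libraries and 24.4, 23.4 and 44.7 FPKM in siScrambled libraries, and its log2 fold change was -0.0008 (adjusted p = 1). Without siScrambled replicate 3 it was 0.29 (adjusted p = 0.0297). The high value came from 1 transcript of 955 bases, Ddx27-206, listed at 0, 0.132 and 0 FPKM in siSirt7 libraries and at 0, 0 and 29.98 FPKM in siScrambled libraries. The longer transcript Ddx27-201, of 2714 bases, was at 28.8, 28.4 and 31.1 FPKM in siSirt7 libraries and at 24.4, 23.4 and 14.7 FPKM in siScrambled libraries.

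Spliceosomal helicases had the highest median of the roles with more than 1 member. Of 9 tested, 2 rose (22.2%, against 12.7% of all tested genes) and none fell (0%, against 12.5%). Each member was counted in 1 role only, so these values hold for this grouping and not for every helicase with a part in splicing. Ddx5, which also takes part in splicing and was called lower (-0.11), is counted under transcription coregulation. The fold change was positive for 8 (88.9%, against 49.1% of all tested genes), with a median of 0.25. Both calls were lost when single libraries were left out, as given beside each. They summed to 212, 213 and 219 FPKM in siSirt7 libraries, against 192, 192 and 194 FPKM in siScrambled libraries. Dhx38, the counterpart of yeast Prp16, which remodels the spliceosome before the last catalytic step, stood at 19.0, 18.2 and 19.4 FPKM in siSirt7 libraries and at 16.05, 14.8 and 16.3 FPKM in siScrambled libraries. Its means were 18.9 ± 0.604 FPKM in siSirt7 cells and 15.7 ± 0.804 FPKM in siScrambled cells (SD, n = 3 each), with a log2 fold change of 0.25 (95% interval 0.11 to 0.38, SE 0.06, limma adjusted p = 0.0216). The call was lost when any of 4 libraries was left out in turn (adjusted p = 0.0531 to 0.0636): siSirt7 replicates 1 and 3 and siScrambled replicates 1 and 2.

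Ddx41, found in the catalytically active spliceosome and also known as a sensor of cytosolic DNA, was at 20.2, 18.8 and 19.4 FPKM in siSirt7 libraries and at 16.7, 17.1 and 16.8 FPKM in siScrambled libraries. The groups did not overlap (means 19.5 ± 0.690 FPKM in siSirt7 cells and 16.9 ± 0.188 FPKM in siScrambled cells, SD, n = 3 each), and the log2 fold change was 0.20 (95% interval 0.08 to 0.31, SE 0.05, limma adjusted p = 0.0259). The call was lost on leaving out siScrambled replicate 1, 2 or 3 or siSirt7 replicate 1 or 3 (adjusted p = 0.0618 to 0.0796). Its most abundant transcript alone, Ddx41-204, overlapped between the groups, at 18.4, 16.1 and 15.5 FPKM in siSirt7 libraries and at 10.5, 17.1 and 15.5 FPKM in siScrambled libraries.

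Several splicing members lay just outside the threshold and are named after their values were seen. Ddx23, counterpart of yeast Prp28, which helps to release the U1 particle from the splice site, was at 42.0, 44.2 and 45.3 FPKM in siSirt7 libraries and at 36.4, 37.4 and 41.1 FPKM in siScrambled libraries (log2 fold change 0.19, limma adjusted p = 0.0578). Dhx8, counterpart of Prp22, which releases the spliced mRNA, was at 13.7, 14.5 and 14.0 FPKM in siSirt7 libraries and at 12.0, 12.4 and 9.73 FPKM in siScrambled libraries (0.29, adjusted p = 0.0673). For both genes the groups did not overlap. Just inside the threshold lay Ddx5, with an adjusted p of 0.0341. Dhx35, a component of the late spliceosome, was at 3.72, 0.128 and 2.69 FPKM in siSirt7 libraries and at 0.333, 0.355 and 0.779 FPKM in siScrambled libraries. Replicate 2 was the low one of the siSirt7 libraries and lay below all siScrambled libraries. The fold change of 0.87 was not called (adjusted p = 0.289), but without that library it was 1.498 (adjusted p = 0.0102). That library was picked after its low value was seen. Without siSirt7 replicate 3 the fold change was 0.64 (adjusted p = 0.515), and without siSirt7 replicate 1 the gene fell below the filter and was not tested. Dhx15, counterpart of Prp43, which takes apart spent spliceosomes and also acts in ribosome assembly, was the most abundant of the splicing group and had its only negative fold change. It was at 54.0, 53.5 and 50.4 FPKM in siSirt7 libraries, against 54.1, 57.1 and 53.9 FPKM in siScrambled libraries (-0.06, adjusted p = 0.341). The remaining splicing members, Ddx42 and Ddx46 of the U2 particle and Dhx16, counterpart of Prp2, had fold changes between 0.08 and 0.37 and were not called.

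**Figure D3:**
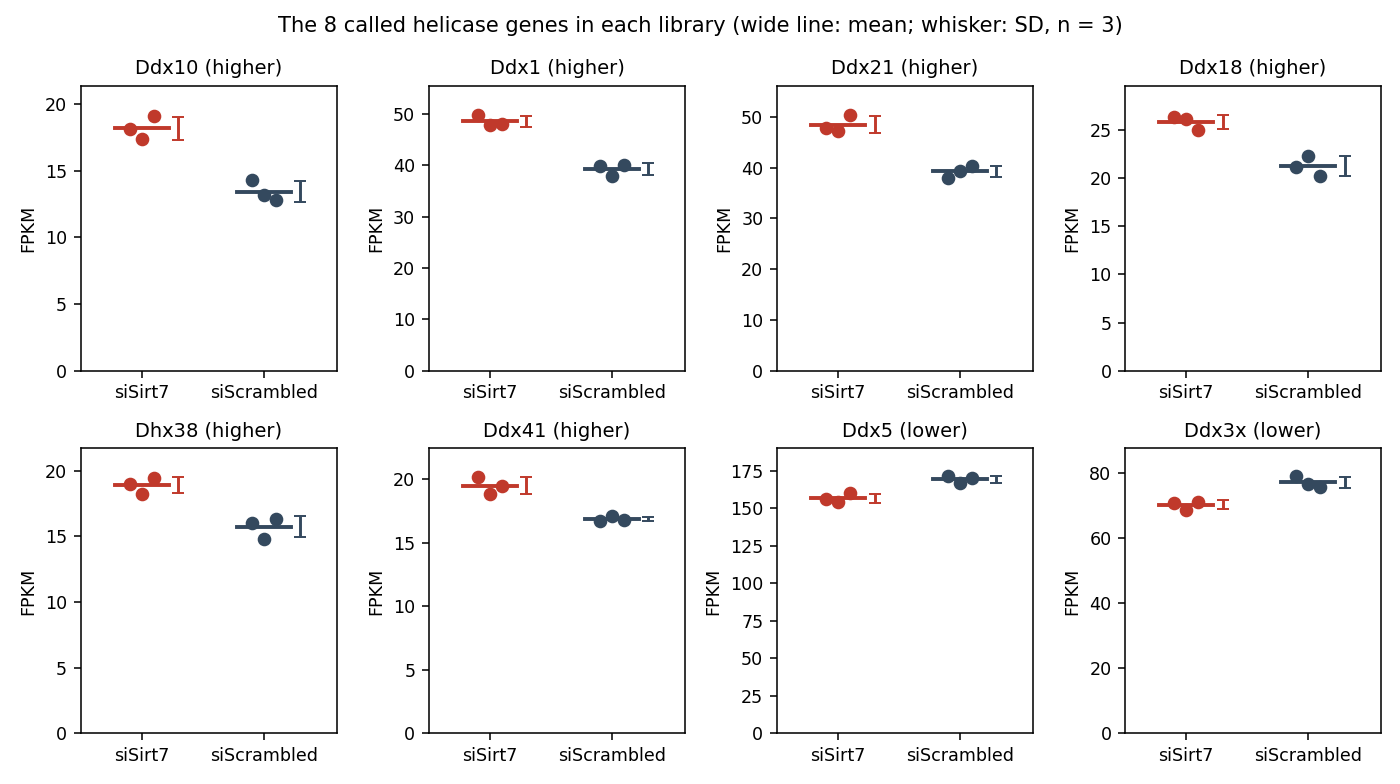
FPKM of the 8 called helicases in each library, siSirt7 left and siScrambled right in each panel, with group means and SD. In every panel the 3 siSirt7 points lie on one side of the 3 siScrambled points; Ddx5 and Ddx3x are the members with lower siSirt7 points.

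Members that act in transcription coregulation and general RNA processing included the most abundant helicase and changed in both directions. Ddx5, known as p68, is a coactivator of several transcription factors and takes part in microRNA processing and splicing. It had the highest level of all members, at 156, 154 and 159.9 FPKM in siSirt7 libraries, against 171, 167 and 170.2 FPKM in siScrambled libraries. The groups did not overlap, but the difference was small: means of 157 ± 2.98 FPKM in siSirt7 cells and 169 ± 2.28 FPKM in siScrambled cells (SD, n = 3 each) and a log2 fold change of -0.11 (95% interval -0.18 to -0.04, SE 0.03, limma adjusted p = 0.0341). The call was lost on leaving out any single library other than siSirt7 replicate 3 (adjusted p = 0.0720 to 0.113). Its paralog Ddx17, known as p72, was at 58.6, 59.1 and 60.4 FPKM in siSirt7 libraries and at 59.2, 58.5 and 56.8 FPKM in siScrambled libraries, with overlap (0.03, adjusted p = 0.560).

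Ddx1, a subunit of the tRNA ligase complex in human cells, had the smallest adjusted p of all members. It stood at 49.8, 47.9 and 48.1 FPKM in siSirt7 libraries and at 39.8, 38.0 and 40.1 FPKM in siScrambled libraries, with no overlap. Means were 48.6 ± 1.07 FPKM in siSirt7 cells and 39.3 ± 1.14 FPKM in siScrambled cells (SD, n = 3 each), 23.7% higher, with a log2 fold change of 0.30 (95% interval 0.21 to 0.39, SE 0.04, limma adjusted p = 0.00333). Dhx9, known as RNA helicase A, which unwinds long duplexes and acts in transcription, was at 60.5, 49.2 and 54.8 FPKM in siSirt7 libraries and at 48.3, 50.6 and 52.1 FPKM in siScrambled libraries (0.12, adjusted p = 0.325). Its relative Dhx36, which unfolds G-quadruplexes, had nearly the same level in all libraries, 13.0, 13.2 and 13.4 FPKM in siSirt7 cells and 12.9, 13.1 and 12.9 FPKM in siScrambled cells (0.03, adjusted p = 0.725). Ddx20, known as Gemin3, a subunit of the SMN complex that assembles splicing particles, was not called (0.08, adjusted p = 0.543).

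The 6 helicases of translation and mRNA turnover had a negative median, -0.09. Of these, 1 was called lower (16.7%, against 12.5% of all tested genes) and none higher (0%, against 12.7%). Ddx3x, an X-linked helicase that helps ribosomes to scan structured 5′ leaders, stood at 71.0, 68.6 and 71.1 FPKM in siSirt7 libraries and at 79.1, 76.8 and 75.8 FPKM in siScrambled libraries. All siSirt7 libraries were below all siScrambled libraries (means 70.2 ± 1.38 FPKM in siSirt7 cells and 77.2 ± 1.68 FPKM in siScrambled cells, SD, n = 3 each), with a log2 fold change of -0.14 (95% interval -0.22 to -0.06, SE 0.03, limma adjusted p = 0.0290). Leaving out any single library other than siSirt7 replicate 3 ended the call (adjusted p = 0.0571 to 0.0969). Its Y-linked partner Ddx3y was at 33.4, 33.9 and 36.6 FPKM in siSirt7 libraries and at 38.0, 38.5 and 32.4 FPKM in siScrambled libraries, with overlap (-0.06, adjusted p = 0.592). Dhx29, which aids initiation on structured mRNAs, was just outside the threshold, at 14.1, 12.1 and 12.2 FPKM in siSirt7 libraries and at 15.8, 14.2 and 14.9 FPKM in siScrambled libraries (-0.21, adjusted p = 0.0898). Dhx34, a factor in nonsense-mediated decay, had a positive fold change, as did Dhx36 of the same role, and stood at 1.32, 1.36 and 1.53 FPKM in siSirt7 libraries and at 0.998, 1.06 and 0.774 FPKM in siScrambled libraries (0.31, adjusted p = 0.0835). Ddx6, which acts in decapping and silencing, was not called (-0.11, adjusted p = 0.571).

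None of the 4 mRNA export helicases was called, with fold changes from -0.02 to 0.25. Ddx19a and Ddx19b act at the nuclear pore, where they strip proteins from emerging mRNA. Ddx19a was at 26.9, 24.8 and 24.8 FPKM in siSirt7 libraries and at 23.0, 23.7 and 24.4 FPKM in siScrambled libraries (0.10, limma adjusted p = 0.205). Ddx19b was at 5.07, 5.41 and 4.95 FPKM in siSirt7 libraries and at 4.55, 4.52 and 4.05 FPKM in siScrambled libraries (0.19, adjusted p = 0.109). For both, every siSirt7 library was above every siScrambled library. Ddx39, which acts with the export machinery, was at 10.8, 22.6 and 11.6 FPKM in siSirt7 libraries and at 12.2, 13.2 and 10.2 FPKM in siScrambled libraries, so that replicate 2 of siSirt7 alone stood high (0.25, adjusted p = 0.557, and -0.07 without it). Ddx39b, known as UAP56, was at 28.3, 29.5 and 22.2 FPKM in siSirt7 libraries and at 27.1, 27.6 and 26.2 FPKM in siScrambled libraries (-0.02, adjusted p = 0.890).

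No member of the remaining roles was called. Of the mitochondrial pair, Dhx30, which acts in assembly of the mitochondrial ribosome, was at 9.79, 10.2 and 11.1 FPKM in siSirt7 libraries and at 13.2, 10.6 and 11.3 FPKM in siScrambled libraries (-0.15, limma adjusted p = 0.289). The other, Ddx28, was not called (0.01, adjusted p = 0.948). Ddx60, an interferon-induced helicase, was near the filter of 1 FPKM, at 0.612, 1.32 and 1.25 FPKM in siSirt7 libraries and at 0.903, 1.44 and 0.630 FPKM in siScrambled libraries (0.05, adjusted p = 0.880). Dhx40 was at 18.7, 18.9 and 18.9 FPKM in siSirt7 libraries and at 17.5, 17.6 and 17.2 FPKM in siScrambled libraries; these did not overlap, yet the log2 fold change of 0.10 was not called (adjusted p = 0.114). Ddx59, Dhx32 and Dhx57 had fold changes between -0.21 and 0.18.

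Reads from close paralogs can be split between them by the authors' estimation, and the sources used here do not say how this was done. Between Ddx19a and Ddx19b, 93.6% of aligned coding bases were identical, and their main transcripts shared 945 runs of 31 bases, 37.5% of those of Ddx19a and 14.4% of those of Ddx19b, so their separate levels are uncertain. Ddx3x and Ddx3y were 84.6% identical and shared 38 such runs. The pairs Ddx39 and Ddx39b (81.7%), Ddx21 and Ddx50 (75.6%), Ddx5 and Ddx17 (75.0%) and Dhx9 and Dhx36 (72.2%) shared none. Gapped bases are left out of these percentages. For Dhx9 and Dhx36 only 2564 bases aligned, of 4149 and 3003 coding bases. Their 72.2% therefore overstates the likeness of the full sequences and does not make them close paralogs.

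The table held 81 transcripts of the members, of which 71 were tested among 17414 transcripts; 8.99% of all were called in either direction. Of the 71 tested member transcripts 5 were called higher and 0 lower by limma, together a smaller share than the 8.99% of all. That background joins both directions, so the split by direction has none beside it. The 5 became 1 to 2 when any single library was left out, and 2 without limma's trend and robust options. They were Ddx1-201 (log2 fold change 0.31, adjusted p = 0.00977), Ddx10-201 (0.41, adjusted p = 0.0199), Ddx18-201 (0.27, adjusted p = 0.0324), Ddx21-201 (0.30, adjusted p = 0.0147) and Ddx23-201 (0.24, adjusted p = 0.0460). Ddx10, Ddx18 and Ddx21 are each represented by 1 transcript, so gene and transcript are the same measurement. Ddx23-201 was called although the gene sum was not, at 38.3, 39.4 and 40.1 FPKM in siSirt7 libraries and at 31.2, 34.0 and 34.5 FPKM in siScrambled libraries. The main transcript of Ddx5, Ddx5-201, was not called (-0.10, adjusted p = 0.0699).

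For some members the sum was steadier than its parts. Dhx15-205 was at 0.456, 4.06 and 2.20 FPKM in siSirt7 libraries and at 0.636, 15.1 and 13.9 FPKM in siScrambled libraries, while Dhx15-201 was at 52.7, 48.8 and 47.8 FPKM in siSirt7 libraries and at 52.7, 42.0 and 40.0 FPKM in siScrambled libraries. Replicates 2 and 3 of siScrambled had more Dhx15-205 and less Dhx15-201 than replicate 1. In Dhx9, siSirt7 replicate 2 stood apart, with 12.7 FPKM of Dhx9-202 and 33.3 FPKM of Dhx9-201, against 40.6 and 32.4 FPKM of Dhx9-202 and 9.04 and 18.1 FPKM of Dhx9-201 in the other siSirt7 libraries. Such splits between overlapping transcripts rest on the authors' estimation.

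**Figure D4:**
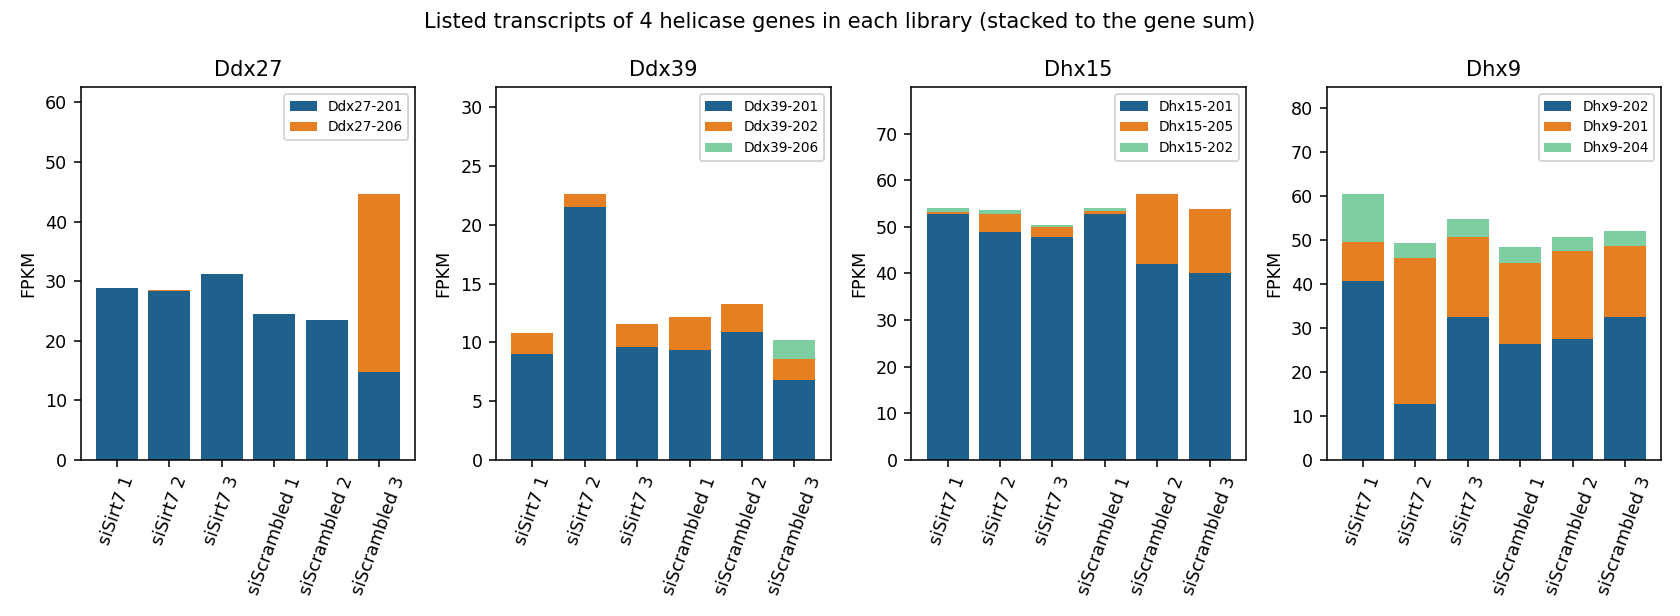
FPKM of the listed transcripts of Ddx27, Ddx39, Dhx15 and Dhx9 in each library, stacked to the gene sum, with siSirt7 replicates left and siScrambled replicates right. The short Ddx27-206 is high in siScrambled replicate 3 only (29.98 FPKM), and the Dhx9 transcripts trade places in siSirt7 replicate 2.

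Words in the 3′ UTR, ATATGTA or TATGTAA, were looked up in the main transcript of each gene, since earlier analysis of these data had noticed them among lower genes. At least 1 was present in 2363 of 10323 tested genes (22.9%), in 45.5% of genes called lower and in 12.6% of genes called higher. Because the words were picked from these same data, that contrast is not independent evidence. Among members it was present in 5 of 47 (10.6%): both members called lower, Ddx5 and Ddx3x, 1 called higher, Ddx21, and Ddx3y and Ddx60, not called. The sites of the called members are shown with the word in capitals (GENCODE vM21, GRCm38; coordinates are those of the word).
Ddx5 (chr11:106781831-106781837, minus strand, base 13 of a 3′ UTR of 1495 bases): tttagaagtATATGTAaatgtctgt
Ddx3x (chrX:13292687-13292693, plus strand, base 1195 of 2560): aggttggaaATATGTAcataactgc
Ddx3x (chrX:13293297-13293303, plus strand, base 1805 of 2560): tgctagtttTATGTAAtatttattg
Ddx21 (chr10:62580494-62580500, minus strand, base 1850 of 2099): gcaatatttATATGTAtaattcaac
Ddx21 (chr10:62581553-62581559, minus strand, base 791 of 2099): gataaatggTATGTAAgtgcttgca
In Ddx5 the words overlap in 1 run, and in Ddx3x and Ddx21 they lie apart. Of the 42 members without a word, 5 were called higher and 0 lower by limma, with a median of 0.10; of all tested genes without a word, 14.7% were called higher and 9.02% lower. A longer 3′ UTR has more places for a word, and the part of length was not tested. Among members called higher without a word, the 3′ UTR had 161 bases in Ddx18, 179 in Ddx41 and 388 in Dhx38. It had 450 bases in Ddx10 and 2525 in Ddx1. A match is a string of letters and shows no binding.

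RefSeq promoters (GRCm38.p6, from 250 bases before to 50 bases after the start) matched 44 of 48 members by symbol, and 8495 (78.3%) of the tested genes. The core of ETS-factor sites, CCGGAAG on either strand, was present in 19 of 44 members (43.2%), against 21.6% of the tested genes matched and 9.93% of all 27025 genes with a promoter entry. The E-box CACGTG was present in 6 members (13.6%), against 12.3% of the tested genes, and TATAAA on either strand in 5 (11.4%), against 8.30%. Of the 5 members called higher that had an entry, 2 held the ETS core (40%, Ddx1 and Ddx10), against 43.2% of all members with an entry. Of the 2 called lower, 1 held it (Ddx5). Here too a match is a string of letters and shows no binding. A called and 2 uncalled examples follow, with the motif in capitals, on the gene's strand.
Ddx10 (chr9:53248263-53248329, minus strand, motif from -187): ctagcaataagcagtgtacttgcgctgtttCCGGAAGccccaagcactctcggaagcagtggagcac
Dhx9 (chr1:153487720-153487786, minus strand, motif from -96): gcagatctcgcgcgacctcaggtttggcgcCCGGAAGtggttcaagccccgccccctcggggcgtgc
Ddx17 (chr15:79546934-79546991, minus strand, motif from -229): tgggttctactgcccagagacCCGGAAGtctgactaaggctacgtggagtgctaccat

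Helicases with other names were set beside the members; most act on RNA, but Brip1, Ercc2 and Ercc3 in this list are DNA helicases. Of 21 tested, 2 were called higher (9.52%, against 12.7% of all tested genes) and 3 lower (14.3%, against 12.5%), with a median of -0.05. The count called higher was 1 when any siScrambled library or siSirt7 replicate 2 was left out, and the count called lower was 1 without siScrambled replicate 2. Eif4a1, the helicase that opens 5′ leaders for the ribosome, had 103.9 ± 8.59 FPKM in siSirt7 cells and 73.0 ± 2.86 FPKM in siScrambled cells (SD, n = 3 each), a log2 fold change of 0.50 (limma adjusted p = 0.00370). That is more than any called member, but membership here follows the gene symbol, so this is no contrast between helicase families. Skiv2l2, the helicase of the nuclear exosome, had 20.6 FPKM in siSirt7 cells and 18.5 FPKM in siScrambled cells (0.15, adjusted p = 0.0363). Lower in siSirt7 cells were Znfx1, with 10.9 FPKM in siSirt7 cells and 14.8 FPKM in siScrambled cells (-0.41, adjusted p = 0.00799), Brip1, a DNA repair helicase, with 0.997 FPKM in siSirt7 cells and 1.83 FPKM in siScrambled cells (-0.50, adjusted p = 0.0148), and Ythdc2, a reader of N6-methyladenosine, with 2.14 FPKM in siSirt7 cells and 3.05 FPKM in siScrambled cells (-0.37, adjusted p = 0.0216).

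Of 49 tested cofactors of these helicases, 6 were called higher and 1 lower, with a median of 0.08; these shares, 12.2% and 2.04%, stand beside 12.7% and 12.5% of all tested genes. Utp14a, a small-subunit assembly factor that activates Dhx37 in yeast and human cells, had 16.4 ± 0.529 FPKM in siSirt7 cells and 10.8 ± 0.772 FPKM in siScrambled cells (SD, n = 3 each), a log2 fold change of 0.56 (limma adjusted p = 0.00241). Thoc1, of the export complex that holds Ddx39b, had 20.5 FPKM in siSirt7 cells and 15.6 FPKM in siScrambled cells (0.37, adjusted p = 0.00215). Aggf1 (0.24, adjusted p = 0.0125), Casc3 of the exon junction complex (0.24, adjusted p = 0.0125) and Lsm14b, a partner of Ddx6 (0.24, adjusted p = 0.0272), were also higher. The sixth was Gpatch11 (0.26, adjusted p = 0.0398). Dcp2, the decapping enzyme, was lower, with 5.15 ± 0.122 FPKM in siSirt7 cells and 7.55 ± 1.32 FPKM in siScrambled cells (-0.46, limma adjusted p = 0.0315). No cofactor was called lower without siSirt7 replicate 1 or without siScrambled replicate 2.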

How the data were processed

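RNA of 6 libraries was prepared with an mRNA library kit, per the labels' protocols. The deposited values are FPKM per protein-coding transcript; reads were aligned by the authors with HISAT2 to GRCm38 (mm10), per the submitters' processing notes. Its version, the annotation, the FPKM program and strand handling: not given in the sources used here. Groups follow the sample titles.

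FPKM were summed per gene over 23242 transcripts. Genes averaging 1 FPKM or more were tested on log2(FPKM + 1), a scale that understates the change of low genes, with trend and robust fits in limma 3.58.1, run under R 4.3.3. Sequences came from GENCODE vM21 and RefSeq tables, read with Python 3.11.15 and pandas 2.3.3; names of all 48 members matched, and for 46 the transcript coordinates did too. Roles are textbook assignments. Members, lists, roles and UTR words were chosen with earlier results of these data known. Named were Sirt7, all called members, Ddx21, the 5 most abundant, the most abundant of each role without a call, paralog partners, members with called transcripts, and up to 6 called genes per companion list; others are marked as chosen after their values were seen or appear as group extremes. The test was tried on simulated data. Alternatives numbered 15.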

Additional observations from a re-analysis of the deposited data

How the results depend on the processing

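Of the 8 called members, 4 (Ddx1, Ddx10, Ddx18 and Ddx21) kept their call in all 15 alternatives; the others kept their direction. The member median of 0.10 lay between 0.09 and 0.12 throughout, and scaling moved the median of all genes by at most 0.01. Between the groups, libraries of the same replicate number had correlations of 0.00682, 0.0329 and -0.0146. Those of different number had -0.0415 to 0.0335. These values cannot settle whether the replicate numbers pair the libraries. The counts that follow lack the share of all genes under the same setting, so they show only how calls depend on processing. Calls over all genes shift as well: 1356 genes were called lower in the main fit, and fewer with a library left out. With the replicate block, 5 members were called higher and 0 lower, and 0 single transcripts higher. The same block gave 1 other-named helicase higher and 1 lower, and 0 cofactors lower. Without the trend and robust options, 0 members were lower and 2 transcripts higher. Leaving out each library in turn gave 4 to 7 members higher and 0 to 2 lower, 1 to 2 transcripts higher, 900 to 1117 of all genes lower, 1 to 2 other-named helicases higher and 1 to 3 lower, and 0 to 3 cofactors lower. Quantile normalization gave 3 cofactors and 1 transcript lower, and a mean of at least 5 FPKM gave 1 other-named helicase and 2 transcripts lower. That filter leaves Brip1 (mean 1.41 FPKM over all libraries) and Ythdc2 (2.60 FPKM) untested. Adjusted p over these alternatives reached 0.0969 for Ddx3x, 0.125 for Ddx5, 0.469 for Ddx41 (most abundant transcript) and 0.0636 for Dhx38. Of 39 uncalled members, 12 turned direction in at least 1 alternative. Among those the naming rule took, they were Ddx17 (-0.022, quantile normalization), Ddx60 (-0.081 without siScrambled replicate 3, up to 0.22 with another library left out), Ddx39 (-0.071 without siSirt7 replicate 2, up to 0.43 with another left out), Ddx39b (0.10 without siSirt7 replicate 3, down to -0.10 with another library left out and -0.165 by the most abundant transcript) and, by the most abundant transcript, Ddx50 (-0.0051), Dhx15 (0.15) and Dhx9 (-0.15). The cause was not tested. Depth is unknown, so counting error in low members such as Ddx60 could not be given.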
